A study of Homo sapiens with 6 samples.

Results

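The genes described here are 10 genes of bile acid synthesis, conjugation, transport and feedback, out of 62709 genes in the deposited expression table. They were chosen by name: NR0B2, FGF19, CYP27A1, CYP7B1, CYP8B1, BAAT, SLC27A5, ABCB11, SLC51A and SLC51B. Each name matched 1 row of the table. RNA was sequenced from HepG2.2.15, a human hepatoma line labelled wild type, which is a clone of HepG2 with integrated hepatitis B virus DNA. Cells of both groups grew in serum-containing medium with the selection agent G418. For 3 days 1 group received Yinqi Sanhuang Jiedu Decoction (YQSHJD), a Chinese herbal medicine given as a diluted powder, as 10% of the medium at a single dose. The other received saline, which the treatment protocol calls PBS. There were 3 libraries in each group, numbered 1 to 3. Nothing in the labels says that they came from separate cultures, so p-values measure the spread between these libraries, which may be technical.

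Hepatocytes make bile acids from cholesterol. The classical route starts with CYP7A1 and the alternative route with CYP27A1 and CYP7B1, and CYP8B1 sets the share of cholic acid. SLC27A5 activates the acids with coenzyme A and BAAT joins them to glycine or taurine, after which ABCB11 pumps them into bile. Bile acids are ligands of the nuclear receptor FXR, encoded by NR1H4, which induces NR0B2 (the repressor SHP), FGF19, ABCB11 and the 2 subunits of the basolateral exporter, SLC51A and SLC51B. FGF19 acts through the receptor FGFR4 and its partner KLB, and both it and SHP lower bile acid synthesis.

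The libraries held 13370372 to 15615649 reads in genes, recovered from the deposited FPKM values (fragments per kilobase of gene, scaled by depth) and the gene lengths. All 9 hepatocyte and hepatoma markers checked were above the detection filter used below, with ALB at 831 to 1011 FPKM in saline and 1799 to 2605 FPKM with YQSHJD. ALB rose most of the 9, and AFP, APOA1, TF, HNF4A and GPC3 also lay higher with YQSHJD. TTR fell from a mean of 21.0 to 16.3 FPKM, and APOB and SERPINA1 overlapped between groups. Of 6 markers of ileal enterocytes, the other main source of FGF19, 0 passed the filter, SLC10A2 and SI were listed at 0 in all libraries, and their summed level was at most 0.281 FPKM. Bile duct markers, which hepatoma cells also express, summed to 183 to 212 FPKM in saline and 118 to 144 FPKM with YQSHJD, with CFTR at or near 0. The 3 that passed the filter did not move together. SOX9 fell from a mean of 137 to 68.3 FPKM, KRT19 rose from 27.1 to 33.6 FPKM, and SLC4A2 was at 30.1 and 29.5 FPKM. Stellate cell and fibroblast markers summed to 15.0 to 19.5 FPKM and 13.1 to 14.0 FPKM, with COL3A1 and DCN at 0. Immune markers summed to at most 0.147 FPKM, with PTPRC at 0. The part of these markers in the results was not tested. YQSHJD 1 stood somewhat apart, at a root mean square log2 difference of 0.36 from the other YQSHJD libraries, against 0.30 and 0.32 for YQSHJD 2 and 3 and 0.23 to 0.24 for saline libraries. In bulk RNA, fewer cells with a transcript and less of it per cell cannot be told apart.

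The question is how YQSHJD changed expression of these genes. NR0B2 rose 1.60-fold and BAAT rose 2.44-fold, while CYP27A1, the most abundant of the 10, differed by less than the test could call. FGF19 was 6.30-fold lower in mean FPKM and CYP8B1 3.94-fold higher, both at no more than 34 reads per library. CYP7B1 was listed at 0 in all 6 libraries, and ABCB11 had 1 read in 1 library.

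Of the 10 genes, 5 reached 1 FPKM in 3 or more of the 6 libraries and were tested with limma on log2(FPKM + 1). Of these 5, 2 were higher with YQSHJD and 0 lower, taking an adjusted p under 0.05 (Benjamini-Hochberg). Of all 10966 genes tested, 41.4% passed, 23.3% higher and 18.0% lower, so the share of the 10 genes' tested members that passed was near that of all genes and is no result about them as a set. BAAT passed the filter through the YQSHJD libraries, where it is high. Leaving out all genes that passed through 1 group in this way, 1 of 4 tested members was higher and 0 lower. Of the 10386 genes then tested in all, 2382 were higher and 1754 lower. The median log2 difference of the 5 was 0.14, and that of all tested genes was 0.04. Among the 5, the groups were fully separate for NR0B2 and BAAT, and for 55.3% of all tested genes, 30.7% with YQSHJD as the higher group.

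**Figure D1:**
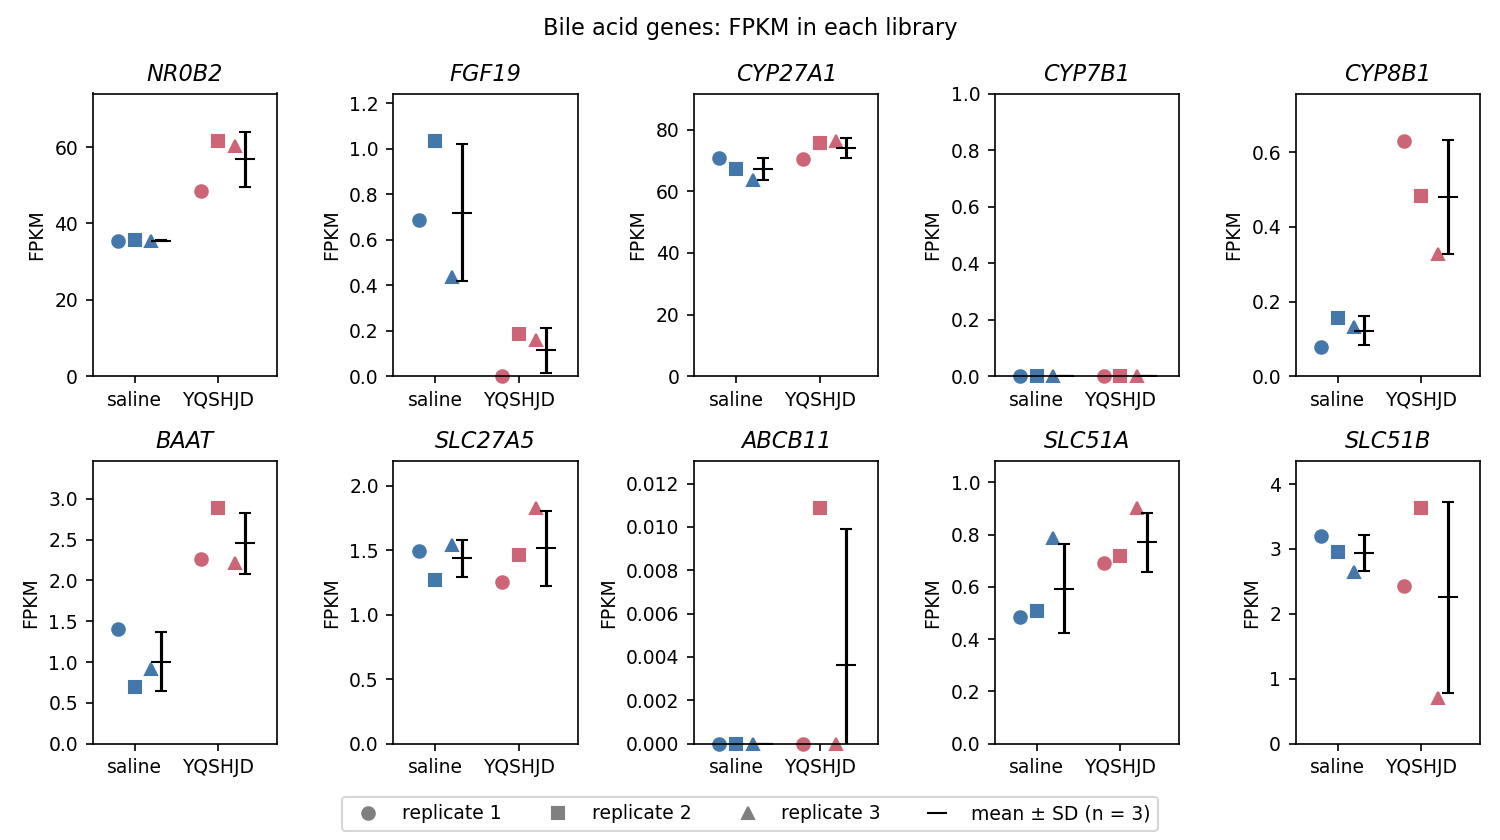
FPKM of the 10 genes in each library, with saline in blue, YQSHJD in red, a symbol per replicate number, and the mean ± SD of the 3 libraries in black. Axes start at 0 and differ between panels. NR0B2, BAAT and CYP8B1 lie higher and FGF19 lower in all YQSHJD libraries, and the SLC51B value of YQSHJD 3 lies far under the other 5.

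NR0B2 (ENSG00000131910, chromosome 1, 26911489 to 26913975, minus strand in the deposited table) encodes SHP, a nuclear receptor without a DNA-binding domain that represses other receptors. It measured 35.5, 35.5 and 35.3 FPKM in saline 1 to 3 and 48.6, 61.7 and 60.2 FPKM in YQSHJD 1 to 3. The saline libraries were nearly equal, YQSHJD 1 lay lowest of the treated ones, and the groups did not overlap. The means were 35.5 ± 0.12 and 56.8 ± 7.18 FPKM (SD, n = 3 each), from 630 to 674 and 730 to 976 reads. NR0B2 differed by 0.66 ± 0.11 on the log2 scale (standard error, limma adjusted p = 0.00179). When each library was rescaled to a fixed sum, as TPM does, the log2 difference was 0.31 and the call was lost (limma adjusted p = 0.0969). That rescaling moved the median of all tested genes from 0.04 to -0.29. Relative to the median, NR0B2 stood at 0.62 as deposited and 0.60 after rescaling.

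NR0B2 lies inside the span of NUDC, a nuclear movement gene on the opposite strand. In GENCODE release 29 the exons of the pair share 0 bases. Whether the counting used strand was not given in the sources read here, so reads from unspliced NUDC RNA could be counted in NR0B2. NUDC measured 65.6, 59.7 and 65.9 FPKM in saline and 77.5, 92.2 and 93.8 FPKM with YQSHJD, and it rose too (log2 difference 0.45, limma adjusted p = 0.00792), a call lost under TPM rescaling (0.10, adjusted p = 0.578). Both genes had their lowest treated value in YQSHJD 1. The ratio of NR0B2 to NUDC was 0.541, 0.595 and 0.536 in saline and 0.627, 0.669 and 0.642 with YQSHJD. The ratios did not overlap between groups, with a log2 difference of 0.21 (two-sided exact permutation test, p = 0.1, the smallest that 3 against 3 libraries allow). The part of NUDC in the NR0B2 value was not tested.

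NR1H4, which encodes FXR, the receptor that induces NR0B2, moved the other way. It measured 10.1, 12.1 and 13.2 FPKM in saline and 8.95, 7.53 and 6.74 FPKM with YQSHJD, with no overlap, and fell by 0.55 on the log2 scale (standard error 0.13, limma adjusted p = 0.0102). Under TPM rescaling the difference was -0.93. With no filter on low values, where 26577 genes are tested, the adjusted p of NR1H4 was 0.0521 at the same difference. The ratio of NR0B2 to NR1H4 was 2.67 to 3.50 in saline and 5.43 to 8.94 with YQSHJD (two-sided exact permutation test, p = 0.1, the smallest possible).

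**Figure D2:**
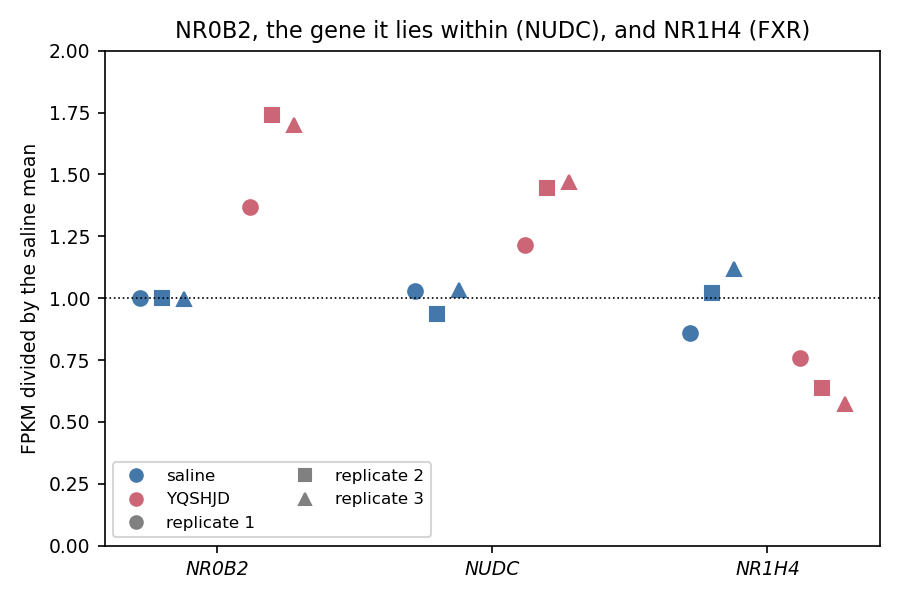
FPKM of NR0B2, of NUDC, in whose span NR0B2 lies, and of NR1H4 (FXR) in each library, divided by the gene's mean in saline (dotted line at 1). NR0B2 in the YQSHJD libraries lies at 1.37 to 1.74, NUDC at 1.22 to 1.47 and NR1H4 at 0.571 to 0.759.

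FGF19 (ENSG00000162344, chromosome 11, 69698238 to 69704022, minus strand) encodes a hormone that is made mainly in the ileum and signals to the liver. It measured 0.685, 1.04 and 0.436 FPKM in saline and 0, 0.184 and 0.158 FPKM with YQSHJD. These are 19, 29 and 13 reads against 0, 4 and 4 reads, and the groups did not overlap. FGF19 did not pass the FPKM filter. With no filter on low values it had a log2 difference of -0.61 and did not pass (limma adjusted p = 0.0584). A further fit, limma-voom on the recovered reads of genes with 10 or more reads in 3 or more libraries, was chosen after seeing the data. This fit used the library depths that FPKM implies, so it keeps the scaling of the deposited values. FGF19 and CYP8B1 enter it only through the group where they are high, so no test of them is drawn from it. Of 13792 genes in that fit, 39.6% passed, 21.3% higher and 18.3% lower, and of the 6 other members it held, NR0B2 and BAAT were higher, 0 were lower and 4 did not pass.

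The receptor side of FGF19 was present in both groups. FGFR4, the receptor, measured 203 to 214 FPKM in saline and 118, 150 and 161 FPKM in YQSHJD 1 to 3, with no overlap, and fell by 0.55 on the log2 scale (limma adjusted p = 0.00662). After removal of a trend with GC content from each library, its log2 difference was -0.22 (limma adjusted p = 0.011), and under TPM rescaling -0.91. KLB, the partner protein that FGF19 needs, measured 0.459, 0.325 and 0.488 FPKM in saline and 1.30, 1.17 and 1.13 FPKM with YQSHJD, a 2.83-fold higher mean. KLB passed the FPKM filter only through the YQSHJD libraries, where it is high. With no filter its log2 difference was 0.63 (limma adjusted p = 0.0123), and on the reads, which exceed 10 in all 6 libraries, it was 1.51 (limma-voom adjusted p = 0.00022).

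CYP27A1 (ENSG00000135929, chromosome 2, 218781749 to 218815293, plus strand), the mitochondrial sterol 27-hydroxylase of the alternative route, had the highest level per length of the 10 genes. It measured 70.7, 67.3 and 63.7 FPKM in saline and 70.5, 75.6 and 76.5 FPKM with YQSHJD. YQSHJD 1 lay within the saline range, so the groups overlapped. CYP27A1 differed by 0.14 ± 0.08 on the log2 scale (standard error), with a 95% interval of -0.05 to 0.33 (limma adjusted p = 0.21). CYP27A1 passed only after the GC correction, at 0.37 (limma adjusted p = 0.00221), and had a log2 difference of -0.22 under TPM rescaling (limma adjusted p = 0.121).

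The other synthesis enzymes among the 10 were near the detection limit. CYP7B1 (ENSG00000172817, chromosome 8, 64587763 to 64798737), the oxysterol 7-hydroxylase of the alternative route, was listed at 0 in all libraries, as was CYP7A1, the rate-limiting enzyme of the classical route. A listed 0 may not be a true absence. RXRB on chromosome 6, a widely expressed partner of nuclear receptors, had at most 1 read per library in the same table. Whether this bears on CYP7B1 and CYP7A1 was not tested. CYP8B1 (ENSG00000180432, chromosome 3, 42856005 to 42875898, minus strand), the sterol 12-hydroxylase, measured 0.0786, 0.156 and 0.132 FPKM in saline and 0.632, 0.482 and 0.327 FPKM with YQSHJD. These are 5, 10 and 9 reads against 34, 24 and 19 reads, with no overlap. CYP8B1 did not pass the FPKM filter. With no filter it had a log2 difference of 0.40 and did not pass (limma adjusted p = 0.0738). CYP8B1 lies within the span of ACKR2 on the opposite strand and shares 142 exon bases with it in GENCODE release 29. ACKR2, an atypical chemokine receptor, measured 1.44 to 1.55 FPKM in saline and 1.90 to 2.44 FPKM with YQSHJD, and its part in the CYP8B1 reads was not tested.

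Conjugation runs through SLC27A5 and BAAT in turn, and their values differed in pattern. BAAT (ENSG00000136881, chromosome 9, 101354182 to 101385400, minus strand) measured 1.40, 0.700 and 0.915 FPKM in saline and 2.26, 2.89 and 2.22 FPKM with YQSHJD. Every YQSHJD library lay above every saline library, from 138 to 163 against 51 to 101 reads. The means were 1.01 ± 0.36 and 2.46 ± 0.37 FPKM (SD, n = 3 each). BAAT differed by 0.79 ± 0.15 on the log2 scale (standard error, limma adjusted p = 0.00377), and 1.33 on the reads, where no pseudocount of 1 FPKM damps it (limma-voom adjusted p = 0.000415). BAAT passed the FPKM filter with all 3 YQSHJD libraries and saline 1 alone of the controls, whereas all 6 libraries pass the filter on reads. With no filter its adjusted p was 0.0273 (limma). In GENCODE release 29 BAAT shares 453 exon bases with a pseudogene on the opposite strand that was listed at 0. BAAT has 3389 exon bases in that release, against a length of 4734 in the deposited table.

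SLC27A5 (ENSG00000083807, chromosome 19, 58479512 to 58512413, minus strand), the bile acid coenzyme A ligase, measured 1.5, 1.27 and 1.54 FPKM in saline and 1.26, 1.46 and 1.83 FPKM with YQSHJD. The groups overlapped, and YQSHJD held both the lowest and the highest value. The log2 difference was 0.04 with a 95% interval of -0.23 to 0.31 (limma adjusted p = 0.804). SLC27A5 shares 1131 exon bases with ZNF446 on the opposite strand in GENCODE release 29, and ZNF446 measured 1.59 to 1.73 FPKM in saline and 0.569 to 1.07 FPKM with YQSHJD. Its part in the SLC27A5 reads was not tested. The ratio of BAAT to SLC27A5 was 0.551 to 0.936 in saline and 1.21 to 1.97 with YQSHJD, with no overlap (two-sided exact permutation test, p = 0.1, the smallest possible).

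Start-site sequences for 6 of the 10 genes were in the RefSeq table on GRCh38.p14, each from 250 bases before to 50 bases after an annotated start, and BAAT had 2 of them. They were searched on both strands for the nuclear receptor half-site AGGTCA, which 13.8% of 35116 promoters in that table hold. Of the 7 sequences, 2 held it, 1 of BAAT and the one of SLC51B. These are printed with SLC27A5, whose window holds none, so that the half-site and its surroundings can be compared. Capitals mark the half-site.
BAAT, chr9:101383515-101383814, minus strand: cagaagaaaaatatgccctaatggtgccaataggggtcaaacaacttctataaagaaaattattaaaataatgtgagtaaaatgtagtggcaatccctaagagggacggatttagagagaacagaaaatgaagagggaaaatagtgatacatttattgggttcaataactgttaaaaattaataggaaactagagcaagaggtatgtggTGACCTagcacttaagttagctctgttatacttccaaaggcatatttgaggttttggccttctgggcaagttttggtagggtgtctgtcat
SLC51B, chr15:65045137-65045436, plus strand: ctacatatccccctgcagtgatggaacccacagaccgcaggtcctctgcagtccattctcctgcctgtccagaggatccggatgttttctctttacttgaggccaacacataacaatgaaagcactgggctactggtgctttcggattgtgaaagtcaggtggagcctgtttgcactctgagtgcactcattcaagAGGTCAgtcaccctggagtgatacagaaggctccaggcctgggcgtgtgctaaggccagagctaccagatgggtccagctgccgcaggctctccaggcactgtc
SLC27A5, chr19:58511943-58512242, minus strand: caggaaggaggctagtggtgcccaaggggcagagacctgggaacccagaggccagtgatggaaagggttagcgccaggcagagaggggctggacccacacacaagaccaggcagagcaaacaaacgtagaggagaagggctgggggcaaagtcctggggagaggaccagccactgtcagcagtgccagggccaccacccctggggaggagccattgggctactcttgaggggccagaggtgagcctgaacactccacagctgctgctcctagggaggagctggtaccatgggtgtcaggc

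The half-site began at position -54 from the start in SLC51B, on the strand shown, and at -41 in BAAT, on the other strand. The inverted repeat of this half-site with 1 base between, AGGTCANTGACCT, which FXR is known to bind, was in 0 of the 35116 promoters in this exact form. The direct repeat AGGTCANAGGTCA was in 0.0228% of them and in none of the 7 sequences, and the HNF1 motif GTTAATNATTAAC was in 0.0057% and in none of the 7. The core of the antioxidant response element, TGACNNNGC, was in 13.3% of all promoters and, among the 7 sequences, in that BAAT window alone, where it overlaps the half-site. The core of the AHR element, GCGTG, was in 36.5% of all and, among the 7, in the SLC51B window alone. These matches are descriptions of letters and not of binding.

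SLC51A (ENSG00000163959, chromosome 3, 196211487 to 196243178, plus strand) and SLC51B (ENSG00000186198, chromosome 15, 65045387 to 65053397, plus strand) encode the 2 subunits of OSTα-OSTβ, the exporter that returns bile acids to blood. SLC51B measured 3.20, 2.95 and 2.64 FPKM in saline and 2.43, 3.63 and 0.700 FPKM with YQSHJD. The low value of YQSHJD 3 rests on 9 reads, against 29 and 40 in the other YQSHJD libraries and 40 to 45 in saline. SLC51B differed by -0.39 ± 0.34 on the log2 scale (standard error), with a 95% interval of -1.20 to 0.43 (limma adjusted p = 0.398). Without YQSHJD 3 it was 0.02 (limma adjusted p = 0.912), so its direction rests on that library.

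SLC51A measured 0.486, 0.506 and 0.789 FPKM in saline and 0.692, 0.717 and 0.902 FPKM with YQSHJD, and the groups overlapped. It did not pass the FPKM filter, and its log2 difference on the reads was 0.40 with a 95% interval of -0.19 to 0.98 (limma-voom adjusted p = 0.27). SLC51A shares 389 exon bases in GENCODE release 29 with PCYT1A, a phosphatidylcholine synthesis gene on the opposite strand, which measured 8.21 to 9.05 FPKM in saline and 12.1 to 13.0 FPKM with YQSHJD. Its part in the SLC51A reads was not tested. The ratio of SLC51B to SLC51A was 3.35 to 6.57 in saline and 0.777 to 5.06 with YQSHJD, with overlap (two-sided exact permutation test, p = 0.3). ABCB11 (ENSG00000073734, chromosome 2, 168915498 to 169031324, minus strand), the bile salt export pump, was listed at 0 in 5 libraries and at 0.0109 FPKM in YQSHJD 2.

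In saline the order of levels per length, as FPKM, was CYP27A1, NR0B2, SLC51B, SLC27A5, BAAT, FGF19, SLC51A and CYP8B1, followed by ABCB11 and CYP7B1 at 0. The neighbours SLC27A5 and BAAT, BAAT and FGF19, and FGF19 and SLC51A overlapped in their saline libraries. With YQSHJD, BAAT lay above SLC51B in mean, at 2.46 and 2.25 FPKM, but the SLC51B libraries spanned the BAAT ones. CYP8B1 lay above FGF19 with YQSHJD and under it in saline, with no overlap in either group.

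**Figure D3:**
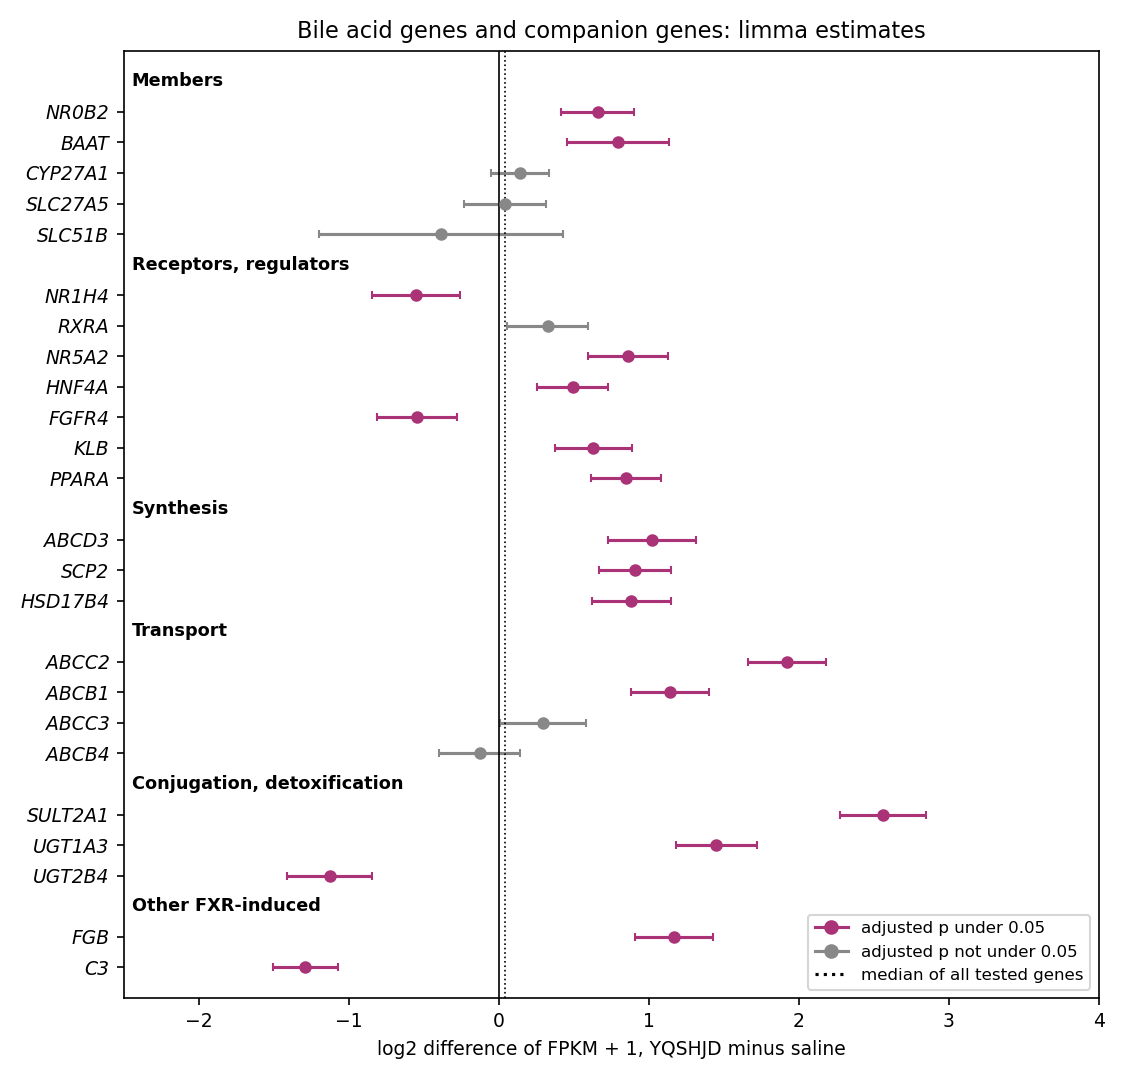
Log2 differences of FPKM + 1 (YQSHJD minus saline) with limma 95% intervals for the 5 tested members and the named companion genes of the pathway. Purple points passed at an adjusted p under 0.05, grey points did not, and the dotted line is the median of all tested genes at 0.04. NR0B2 and BAAT lie to the right of 0 with NR5A2, KLB and HNF4A, and NR1H4 and FGFR4 lie to the left. BAAT, KLB and UGT1A3 passed the filter of this fit through the YQSHJD libraries, where they are high.

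Beyond the 10 genes, 69 companion genes in 5 lists cover the rest of the pathway. Of 44 tested, 20 were higher, 8 lower and 16 did not pass, with a median of 0.31 against 0.04 for all tested genes, of which 23.3% were higher and 18.0% lower. Under TPM rescaling 15 were higher and 14 lower with a median of 0.0018, against 7.99% higher, 39.6% lower and a median of -0.29 for all tested genes. Without the 3 genes that passed the filter through the YQSHJD libraries alone (KLB, PPARGC1A and UGT1A3), 17 of 41 were higher and 8 lower. Of all 10386 genes left when those that passed through 1 group are taken out, 2382 were higher and 1754 lower. Among receptors and regulators, 6 of 14 tested were higher and 3 lower, and 4 and 6 under TPM rescaling. KLB and PPARGC1A, a coactivator of nuclear receptors, are among the 6, and without them 4 of 12 were higher and 3 lower. They also leave the test when any 1 YQSHJD library is left out. Of 12 tested, 6 were then higher and 3 lower without YQSHJD 1, 4 and 3 without YQSHJD 2, and 4 and 5 without YQSHJD 3. Of all genes tested in these fits, 2571 were higher and 2024 lower, 1837 and 1556, and 2525 and 2192, in the same order. NR5A2, the receptor LRH-1 that drives CYP8B1 and CYP7A1 and is a target of SHP, measured 2.18 to 2.71 FPKM in saline and 4.68 to 6.15 FPKM with YQSHJD (log2 difference 0.86, limma adjusted p = 0.000792). HNF4A, a liver transcription factor of the same promoters, rose from 13.7 ± 0.26 to 19.8 ± 2.43 FPKM (log2 difference 0.49, limma adjusted p = 0.00625). Its call was lost under TPM rescaling (0.16, adjusted p = 0.372). RXRA, the partner with which FXR binds DNA, had a log2 difference of 0.33 and did not pass (limma adjusted p = 0.0557), but passed without YQSHJD 1 (0.44, adjusted p = 0.00415), with array weights (0.37, adjusted p = 0.00271), after GC correction (0.58, adjusted p = 0.000222) and on the reads (0.37, limma-voom adjusted p = 0.0236). PPARA, the fatty acid receptor, measured 3.07 to 3.44 and 6.34 to 7.57 FPKM and rose by 0.85 on the log2 scale (limma adjusted p = 0.00041).

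Of the other synthesis enzymes, 5 of 7 tested were higher and 0 lower, with a median of 0.58. Under TPM rescaling 4 were higher and 1 lower, with a median of 0.31. The shares of all tested genes are those given above. The 3 with the largest differences act in the peroxisome, where the side chain of bile acid precursors is shortened. ABCD3, which imports those precursors, measured 4.68 to 5.32 FPKM in saline and 9.53 to 13.6 FPKM with YQSHJD. SCP2, a sterol carrier and thiolase, measured 8.27 to 9.41 and 15.7 to 19.6 FPKM. HSD17B4, the peroxisomal bifunctional enzyme, measured 3.33 to 4.10 and 7.14 to 8.97 FPKM. In each of them the groups did not overlap and YQSHJD 1 was the highest library, with log2 differences of 1.02, 0.91 and 0.88 (limma adjusted p from 0.000354 to 0.000614). These enzymes also serve fatty acid oxidation.

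Of the other transporters, 2 of 6 tested were higher and 0 lower, and 2 higher and 2 lower under TPM rescaling. For all tested genes the shares were 23.3% higher and 18.0% lower, and 7.99% and 39.6% under TPM rescaling. ABCC2, the canalicular exporter of conjugates, measured 29.1, 35.1 and 39.3 FPKM in saline and 132, 129 and 136 FPKM with YQSHJD, a log2 difference of 1.92 (limma adjusted p = 1.18e-05). ABCB1, a drug exporter of the same membrane, measured 15.4 to 19.6 and 35.4 to 43.0 FPKM, a log2 difference of 1.14 (limma adjusted p = 0.000184). ABCC3, a basolateral exporter, had a log2 difference of 0.29 that did not pass (limma adjusted p = 0.0923), and did without YQSHJD 1 (0.41, adjusted p = 0.0072), with array weights (0.39, adjusted p = 0.00351), after GC correction (0.44, adjusted p = 0.00466) and on the reads (0.32, limma-voom adjusted p = 0.0495). ABCB4, the phospholipid exporter and a known FXR target, had a log2 difference of -0.13 with a 95% interval of -0.40 to 0.14, and was called lower under TPM rescaling (-0.48, limma adjusted p = 0.0116), GC correction (-0.30, adjusted p = 0.0172) and array weights (-0.24, adjusted p = 0.0321). The hepatocyte uptake carrier SLC10A1 measured 0 to 0.108 FPKM.

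Bile acid conjugation and detoxification genes held 4 higher and 2 lower of 6 tested, or 3 and 2 of 5 without UGT1A3. Of all tested genes 23.3% were higher and 18.0% lower. Without those that passed the filter through 1 group, 2382 of 10386 were higher and 1754 lower. SULT2A1, which sulfates bile acids, measured 13.9, 16.5 and 18.1 FPKM in saline and 114, 94.6 and 91.6 FPKM with YQSHJD, a log2 difference of 2.56 (limma adjusted p = 4.83e-06). UGT1A3, a glucuronosyltransferase, measured 0.428 to 0.621 and 2.84 to 3.76 FPKM, and passed the FPKM filter only through the YQSHJD libraries. With no filter its log2 difference was 1.45 (limma adjusted p = 0.0016), and on the reads 2.54 (limma-voom adjusted p = 9.77e-06). It shares exons with other genes of its locus, so its split is uncertain. UGT2B4, a glucuronosyltransferase known to be induced by FXR, fell by 1.13 on the log2 scale (limma adjusted p = 0.00027), with 7.31 to 8.72 FPKM in saline and 2.50 to 3.59 FPKM with YQSHJD. Other genes known to be induced by FXR in human hepatocytes held 4 higher and 3 lower of 12 tested. The shares of all tested genes were 23.3% and 18.0%. Under TPM rescaling 2 were higher and 3 lower, against 7.99% and 39.6% of all tested genes. Without saline 1, 2 of 12 were higher, and of all 10703 genes then tested 1593 were higher. FGB, a fibrinogen chain, measured 5.67 to 6.47 FPKM in saline and 13.7 to 17.6 FPKM with YQSHJD, a log2 difference of 1.17 (limma adjusted p = 0.000157). C3, a complement protein, measured 343 to 403 and 138 to 161 FPKM, a log2 difference of -1.29 (limma adjusted p = 3.92e-05).

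**Figure D4:**
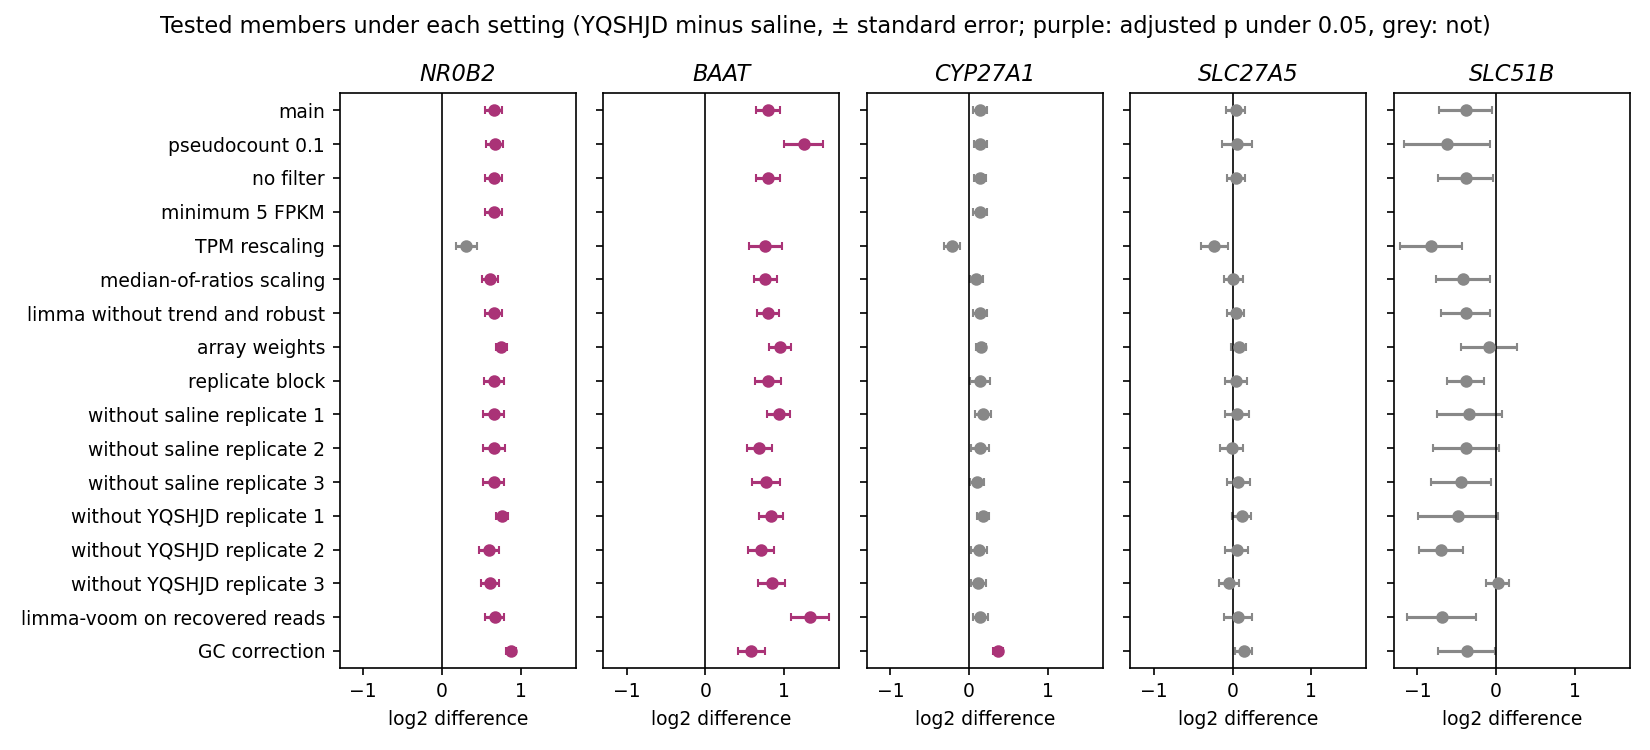
Log2 difference (YQSHJD minus saline) ± standard error of the 5 tested members under each setting, with purple where the adjusted p was under 0.05. NR0B2 passes under every setting shown but TPM rescaling, and BAAT under every setting that holds it. Except with no filter and on the reads, BAAT enters these fits through the YQSHJD libraries, where it is high. CYP27A1 passes after GC correction alone, and SLC27A5 and SLC51B under none.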

How the data were processed

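The authors deposited 1 table with FPKM values, names, coordinates and lengths of 62709 genes, from which 6 libraries were used. Libraries were made from polyadenylated RNA with a TruSeq kit, per the labels' protocols. The submitters' processing notes name CASAVA 2.19. The sources read here do not name the aligner, counter, strand setting, build or annotation. Of the gene identifiers 58273 were in GENCODE release 29 on GRCh38, 70.5% of them with the same start and end. The 6 value columns that match no sample were not used. FPKM times gene length gave whole reads for 100% of values within 0.01 reads. The depth that FPKM implies, divided by the reads in genes, was 1.03 to 1.05 in saline and 0.885 to 0.923 with YQSHJD. The limma-voom fit used the implied depth, so its differences carry this gap between groups, as the FPKM values do. A fit scaled by the reads in genes was not run.

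The 10966 genes that reached 1 FPKM in 3 or more libraries were tested on log2(FPKM + 1) with limma 3.58.1 in R 4.3.3, with trend and robust prior, two-sided, adjusted over all of them at 0.05. That scale understates changes of low genes. Folds are ratios of mean FPKM unless given as log2. The test was tried on simulated data with few changed genes and an even spread. These data differ in both, so no support for the calls is drawn from that trial. Members and lists were chosen with earlier results of these data known. All 10 members were named, 11 companion genes were named whatever their values, and up to 3 called genes with the largest differences in each companion list. Neighbouring genes were named where they overlap a member, and ALB, RXRB, PPARGC1A and single markers as checks, chosen after their values were seen. Alternatives are given in the closing section.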

Additional observations from a re-analysis of the deposited data

How the results depend on the processing

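Without each library in turn, the number of members higher stayed at 2 and lower at 0. The 2 were NR0B2 and BAAT, and BAAT enters these fits through the YQSHJD libraries, where it is high. NR0B2 ranged from 0.60 to 0.77 and BAAT from 0.68 to 0.93 on the log2 scale, CYP27A1 from 0.10 to 0.18, SLC27A5 from -0.05 to 0.12 and SLC51B from -0.70 to 0.02. SLC27A5 changed sign without saline 2 (-0.0089) or YQSHJD 3 (-0.047), and SLC51B without YQSHJD 3 (0.023). Among members that were not tested, FGF19 ranged from -0.74 to -0.49, CYP8B1 from 0.32 to 0.47 and SLC51A from 0.10 to 0.24. Companion genes ranged from 16 to 22 higher and from 6 to 9 lower, with 40 to 44 tested. All genes ranged from 1593 to 2571 higher and from 1105 to 2192 lower, lowest without saline 1 (1593 and 1105), with 1276 lower without saline 2.

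Under TPM rescaling 1 member was higher, NR0B2 stood at 0.31 (adjusted p = 0.0969), CYP27A1 at -0.22, SLC27A5 at -0.23, ABCC3 at -0.043, FGF19 at -1.25 and CYP8B1 at 0.60. Companion genes were 14 lower, and all genes 876 higher and 4342 lower. With a pseudocount of 0.1, FGF19 was at -2.01, CYP8B1 at 1.37, SLC51A at 0.35 and ABCB11 at 0.0496. On recovered reads, with limma-voom, chosen after seeing the data, FGF19 was at -2.90, CYP8B1 at 1.90 and SLC51A at 0.40. FGF19 and CYP8B1 pass the filter of that fit only through the group where they are high, so their calls are not counted. That fit gave 8 of 11 other synthesis enzymes and 7 of 10 other transporters higher (5 and 2 as reported), against 21.3% of all its genes. AKR1C4 among these enzymes and ABCG2 among these transporters pass its filter only through the YQSHJD libraries, where they are high. With no filter 5 companion genes were lower, among them 1 receptor or regulator, and 2 other FXR-induced genes were higher. Of all 26577 genes tested with no filter, 1606 were higher and 1351 lower. With a minimum of 5 FPKM 1 member was higher, since BAAT is not held, 5 companion genes were lower, and 3 receptors and regulators were higher. Of all 6310 genes tested at that minimum, 1817 were higher and 1348 lower. Leaving out genes that passed the filter through 1 group, also chosen later, 1 member was higher, since BAAT is not held. Array weights gave 4 other transporters higher and 1 lower, and of all 10966 genes 3465 higher and 2642 lower. After GC correction, also chosen later, CYP27A1 passed (0.37, adjusted p = 0.00221). For these settings the cause was not tested, except where fewer or more genes are held. Under median-of-ratios scaling, array weights and limma without trend and robust prior no member gained or lost its call.

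Replicate numbers 1 to 3 stand in both groups, but the deviations of libraries of the same number correlated at -0.24, -0.11 and -0.04. None of these correlations is positive, so the numbers are not taken as pairs. With the replicate number as a block, NR0B2 (0.66, adjusted p = 0.00361) and BAAT (0.79, adjusted p = 0.00446) kept their calls, 2 members were higher, and 2018 and 1689 of all genes were higher and lower. The planned count model on recovered reads was not run. Depth limits FGF19, CYP8B1, SLC51A, SLC51B and ABCB11, which had at most 68 reads per library.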
